A study of Homo sapiens with 10 samples.

Results

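The drug-metabolising and aldehyde-oxidising enzymes described here were 35 genes of 62709 with values in the count table. They were chosen by symbol, as members of the cytochrome P450 families 1 to 4 (CYP), the UDP-glucuronosyltransferases 1 and 2 (UGT), the flavin monooxygenases 1 to 5 (FMO), the aldehyde dehydrogenases 1 to 9 (ALDH), the aldo-keto reductases 1 (AKR) and the sulfotransferases 1 and 2 (SULT). Of 97 matching symbols, those with 10 or more reads in at least 2 of the 10 libraries were kept. RNA had been sequenced from H441, an established human lung adenocarcinoma line, to compare cells without TET1 and with added TET1 against the parental line. TET1 converts methylated cytosines to oxidised forms, a route to demethylation. In the first group (KO, 3 libraries), TET1 had been knocked out with CRISPR-Cas9 in the parental cells, and the labels do not say whether 1 clone or a pool was used. The parental cells (WT, 3 libraries) were its control. In the second group (OE, 2 libraries), cells had been transfected transiently with a plasmid for the full-length human TET1 protein. The OE group was set against 2 libraries titled Lipo, a word the labels leave unexplained, which are otherwise labelled wild type and untreated. All cells were grown with 10% fetal bovine serum and antibiotics. Whether libraries of a group came from separate cultures is not stated, so each p-value sets a difference only against the scatter among these libraries.

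Enzymes of these families clear foreign chemicals and many of the cell's own lipids, steroids and aldehydes. In the first phase P450s and flavin monooxygenases add oxygen, while aldehyde dehydrogenases oxidise and aldo-keto reductases reduce aldehydes. In the second phase transferases attach sulfate or glucuronic acid. The liver holds most of this capacity, but airway epithelium has its own set, and the aldehyde dehydrogenases also make retinoic acid and take part in the breakdown of amino acids and fatty aldehydes.

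Total counts were 20994462 to 25981097 per library. Levels are CPM, the read count of a gene divided by the effective size of its library and scaled up by a constant. The effective size is the library total times its TMM factor, a scaling between libraries that ran from 0.967 to 1.04. A gene was called higher or lower where its p, adjusted over all 15832 genes tested, was under 0.05. TET1 had 17883 and 20805 reads in the OE libraries, against 0 and 1 in the Lipo libraries. In KO libraries it had 4, 0 and 8 reads, against 2, 7 and 0 in WT libraries, so the level of TET1 gave no check of the knockout. Lung epithelial markers summed to between 17202 and 23209 CPM across the libraries, and of the 14 markers the club cell gene SCGB1A1 was at 0 in every library and the surfactant gene SFTPC in all but the WT group. Of the 12 tested, 4 were lower and none higher in KO against WT (SFTPB by -1.97 and SLC34A2 by -1.50 on the log2 scale, CDH1 and KRT7 by less). In OE against Lipo 2 were lower, SFTPB by -1.35 among them, and 1 higher, and in Lipo against WT 3 were lower, SFTPB and SFTPA2 by -1.36 each. Over all genes tested, 7.45% were lower in KO, 5.53% in OE and 2.38% in Lipo, and 6.79% were higher in OE. What part the markers had in the enzyme results was not tested. Of 9 hepatocyte markers, the transport protein gene TTR was at 0 in every library, and SERPINA1, which lung epithelium also makes, accounted for most of their sum of 34.2 to 90.4 CPM. Mitochondrial genes took 5.44% to 7.25% of reads in KO libraries, against 5.47% to 6.15% in WT libraries. They took 4.89% and 4.74% in OE libraries, against 8.72% and 8.04% in Lipo libraries.

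Many symbols of these families had few or no reads. Of the 97 symbols, 36 had no read in any library, which allows at most 0.013 CPM over the 10 libraries (3 reads, counting error only), and 26 had reads but stayed under the threshold. Among those without a read were ALDH1A1, CYP3A5, CYP2D6, FMO1 and all 9 genes of the UGT1 family. The UGT1 genes share exons, and how reads that fit several genes were counted is not given in the sources used here. No UGT passed: UGT2B17 had 10 reads in KO 2 and at most 1 in any other library. The families kept 12 ALDH of 16 symbols, 7 AKR1 of 11, 5 CYP4 of 12, 4 CYP2 of 17, 4 SULT of 10, 2 FMO of 5 and 1 CYP1 of 3. No CYP3 was kept of 4. Among the 6 genes that just passed the threshold was AKR1C1, with 14 and 12 reads in WT 2 and WT 3, and among the 5 just outside it was CYP1A1, with 22 reads in OE 1 and 8 in KO 3. Of the 35 members, 34 passed the filter on low counts and were tested, and CYP2A7, with at most 10 reads in a library, was not.

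Per kilobase of annotated exon, the scale on which genes can be compared, the most abundant members in WT libraries were aldehyde-handling enzymes. The aldehyde reductase AKR1A1 and the fatty aldehyde dehydrogenase ALDH3A2 averaged 22.2 ± 3.29 and 22.2 ± 0.972 CPM per kb (SD, n = 3). The mitochondrial acetaldehyde-oxidising ALDH1B1 (20.8 ± 0.825), aldose reductase AKR1B1 (20.7 ± 1.92) and ALDH9A1 of carnitine synthesis (19.3 ± 1.37) followed. Neighbours in this order of 5 lay within the larger of their SDs, except ALDH3A2 and ALDH1B1. ALDH1A3, which oxidises retinaldehyde to retinoic acid, stood at 15.4 ± 0.633, and ALDH3B1, which oxidises aldehydes from lipid peroxidation, at 14.3 ± 0.366. The GABA-degrading ALDH5A1 and CYP1B1, a P450 that acts on oestrogens and polycyclic hydrocarbons, were both at 10.1 (SD 1.36 and 0.777), and the lysine-degrading ALDH7A1 was at 5.98 ± 0.499. The next members, ALDH4A1, CYP2J2 and SULT2B1, lay between 3.80 and 4.16. The most abundant P450 after CYP1B1 and CYP2J2 was the vitamin D hydroxylase CYP2R1 at 1.59 ± 0.160, and 10 members lay under 0.1. Together the 35 genes took 0.0872% to 0.105% of all reads.

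**Figure D1:**
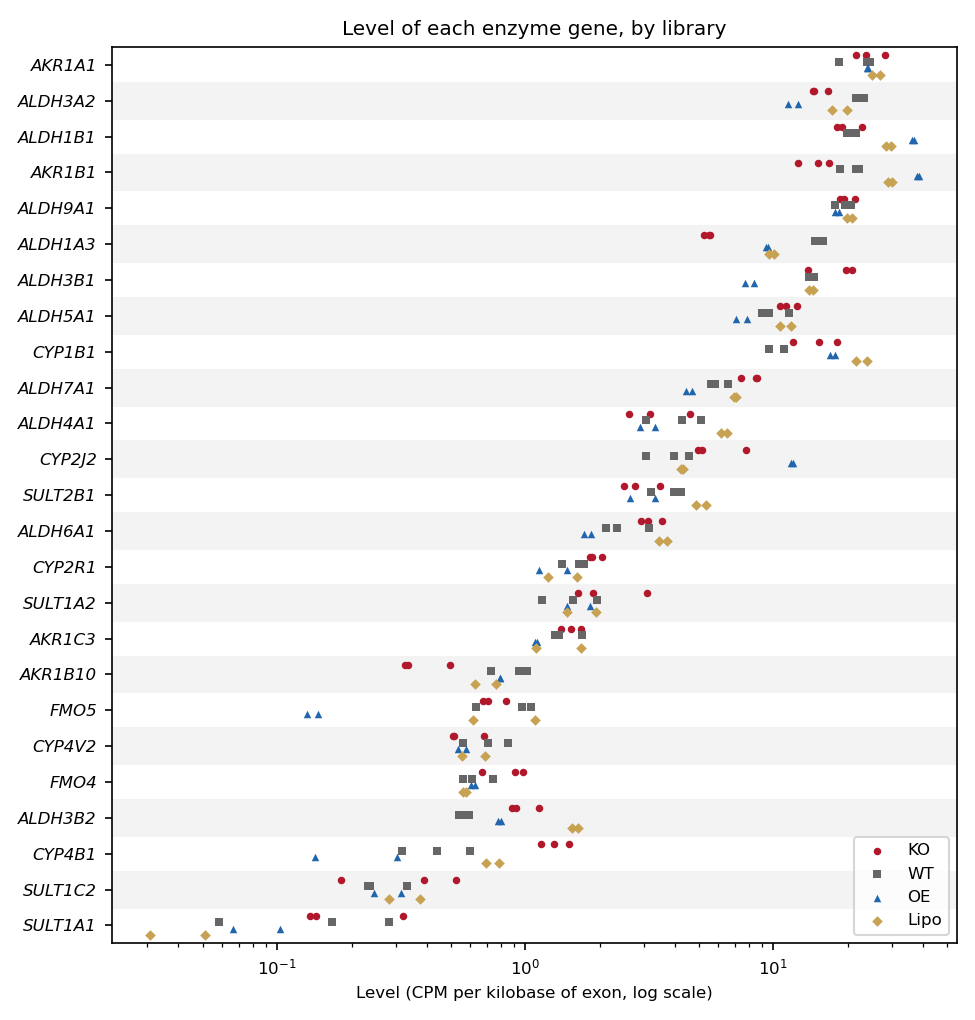
Levels of the 25 enzyme genes that averaged at least 0.1 CPM per kb in WT libraries, on a log axis, with 1 symbol per library (KO circles, WT squares, OE triangles, Lipo diamonds). Aldehyde dehydrogenases and aldo-keto reductases fill the upper rows, and FMO5 in OE (0.132 and 0.146 CPM per kb) and ALDH1A3 in KO stand apart from their controls.

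KO was compared with WT to ask how these enzymes differ once TET1 is targeted. Of the 34 tested members, 7 were called, 4 higher and 3 lower, a share of 20.6%. Over all genes tested 12.6% were called, 5.13% higher and 7.45% lower. The highest and lowest libraries of the groups did not overlap for 11 of 34 members, where 27.6% of all genes showed the same. The retinoic acid-forming ALDH1A3 fell most among the called members, the lung P450 CYP4B1 rose most, and the aldehyde dehydrogenase family held both directions, with 1 higher and 2 lower of 12. The median log2 change was 0.11 over the 34 members, or 0.14 without AKR1D1, which had 0 reads in KO and 3 in WT, and 0 over all genes. The 26 members not called, AKR1D1 aside, ranged between -1.85 and 1.25, with 15 above 0 and 11 below. The higher calls numbered 1 without WT 2 and 2 without WT 3, and the lower ones 2 to 4 with each library left out.

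ALDH1A3 (ENSG00000184254, chromosome 15, 100877714 to 100916626, plus strand, GRCh38 with GENCODE release 29) makes retinoic acid from retinaldehyde. It stood at 32.2, 31.7 and 30.3 CPM in KO 1, 2 and 3, against 84.7, 90.7 and 91.3 CPM in WT 1, 2 and 3. All KO libraries lay far below all WT libraries, and within each group the values were close. The difference was 2.83-fold (log2 -1.50, SE 0.11, adjusted p = 4.56e-07), and the call held when any of the 10 libraries was left out. Of its exon length 27.5% overlaps an antisense gene, AC015712.2, and whether counting used the strand is not given in the sources used here. That gene was at 5.51, 3.20 and 5.11 CPM in KO libraries, against 3.25, 1.91 and 2.80 CPM in WT libraries. Because TET1 acts on methylated cytosine, mostly at CG pairs, the promoters of 4 called members, picked after their values were seen for their clear separation between groups, are shown with each CG in capitals, from 250 bases before to 50 bases after the RefSeq start. They come from RefSeq on GRCh38.p14. The ALDH1A3 promoter (chr15:100879581-100879880, plus strand) lies within the annotated gene, whose first start is upstream. It held 46 CG pairs, the most of the 28 members with a promoter in that set. The median over all 35116 promoters was 14 (quartiles 4 and 28). DNA methylation was not analysed here.

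ALDH1A3: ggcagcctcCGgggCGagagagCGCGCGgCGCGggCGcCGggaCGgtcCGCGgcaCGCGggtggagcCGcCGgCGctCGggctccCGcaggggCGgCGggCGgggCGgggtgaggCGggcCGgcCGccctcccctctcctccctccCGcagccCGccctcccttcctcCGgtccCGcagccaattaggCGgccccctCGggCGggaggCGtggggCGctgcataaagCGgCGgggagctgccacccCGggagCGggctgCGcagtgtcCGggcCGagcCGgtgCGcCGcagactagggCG

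Other genes of retinoid handling and of the retinoic acid response were examined as a list of 26 symbols, 25 of them in the count table. Of these 12 could be tested. In KO 4 were lower and 1 higher, with a list median of -0.22. Over all genes tested 7.45% were lower and 5.13% higher. Among the lower genes was CYP26B1, a P450 of retinoid handling outside the members (log2 -0.69, SE 0.21, adjusted p = 0.0475). RDH10 and DHRS9, dehydrogenases that supply retinaldehyde from retinol, fell with ALDH1A3. RDH10 was at 7.94, 6.17 and 7.28 CPM in KO libraries, against 16.7, 18.7 and 20.4 CPM in WT libraries (log2 -1.38, SE 0.17, adjusted p = 5.89e-05). DHRS9 was at 75.1, 54.9 and 79.0 CPM in KO libraries, against 111, 189 and 172 CPM in WT libraries (log2 -1.17, SE 0.18, adjusted p = 5.82e-04). Neither gene overlapped between the groups. RARB, a retinoic acid receptor that is itself a target of retinoic acid, was called lower (adjusted p = 0.00346). It had 3 reads over the KO libraries and 65 over the WT libraries, a WT to KO ratio of 21.4 (exact 95% interval 7.02 to 107, counting error only). The 3 reads were all in KO 3, without which RARB had no read in KO and the fitted log2 change was -7.41, against -4.27 with it. RXRA, the partner of the retinoic acid receptors and counted in the receptor list, fell by 0.57 on the log2 scale (SE 0.15, adjusted p = 0.0243), but not without KO 1, WT 2 or WT 3 (adjusted p = 0.0602, 0.103 and 0.110). PLAAT4, a retinoid-responsive phospholipase, was the gene of the list that rose (log2 1.24, SE 0.31, adjusted p = 0.0169). The PLAAT4 call was lost without KO 3 (adjusted p = 0.0738) or WT 3 (0.0591). With only KO and WT fitted, the calls of RXRA (adjusted p = 0.0823) and PLAAT4 (0.0559) were lost too.

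**Figure D2:**
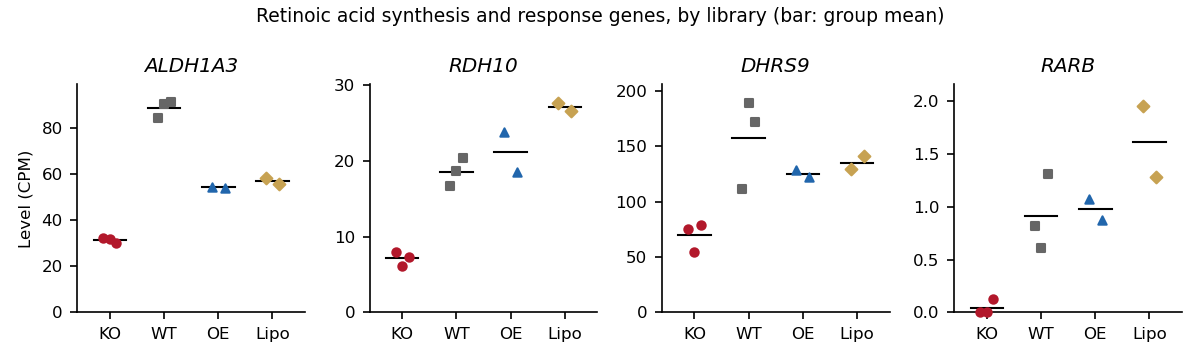
CPM of ALDH1A3, of the retinol-oxidising RDH10 and DHRS9 and of the receptor RARB, with 1 symbol per library and a bar at the group mean. KO libraries lie below WT libraries in all 4 panels, while OE and Lipo libraries lie closer together.

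CYP4B1 (ENSG00000142973, chromosome 1, 46757838 to 46819413, plus strand), a P450 of lung that oxidises fatty acids and foreign chemicals, changed in the other direction. It was at 4.54, 4.02 and 5.20 CPM in KO libraries, against 2.08, 1.11 and 1.53 CPM in WT libraries. Each KO library was above each WT library, by 2.92-fold in the fit (log2 1.55, SE 0.32, adjusted p = 0.00537), from 326 reads in KO and 112 in WT, and the call held with each library left out. Its promoter (chr1:46798796-46799095, plus strand, within the annotated gene, whose first start lies upstream) is poor in CG, with 2 pairs in 300 bases.

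CYP4B1: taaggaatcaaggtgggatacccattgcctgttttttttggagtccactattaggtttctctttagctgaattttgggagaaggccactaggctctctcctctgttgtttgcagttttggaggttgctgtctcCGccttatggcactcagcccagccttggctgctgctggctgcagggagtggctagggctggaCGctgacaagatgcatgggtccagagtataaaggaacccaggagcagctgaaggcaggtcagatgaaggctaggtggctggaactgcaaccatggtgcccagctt

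CYP2J2, which turns arachidonic acid into epoxides, rose to 23.1, 14.9 and 15.4 CPM in KO libraries, against 13.7, 9.20 and 11.8 CPM in WT libraries. The groups did not overlap, but KO 1 stood above the other KO libraries. The difference (log2 0.62, SE 0.19, adjusted p = 0.0476) was close to the threshold and was not called when KO 1, WT 2, WT 3 or any of the 4 OE and Lipo libraries was left out, where adjusted p was 0.0744 to 0.217. The last of these entered through the shared estimate of the spread. Fitted with KO and WT alone, the CYP2J2 rise was not called either (adjusted p = 0.114). CYP1B1 was at 92.0, 109 and 72.2 CPM in KO libraries, against 57.7, 57.8 and 65.9 CPM in WT libraries. Every KO library was higher, with a wide spread in KO (log2 0.59, SE 0.14, adjusted p = 0.0129). This call was lost without KO 2 (adjusted p = 0.0540) or WT 2 (0.0661). It rested on the choice of control: against all 5 libraries labelled wild type the difference was 0.00 (adjusted p = 0.998), since CYP1B1 was higher in Lipo than in WT.

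Among the aldehyde dehydrogenases outside retinoid metabolism, ALDH3A2, which clears fatty aldehydes at the endoplasmic reticulum, fell to 107, 94.0 and 93.5 CPM in KO libraries, against 140, 150 and 139 CPM in WT libraries. The groups were well apart (log2 -0.54, SE 0.11, adjusted p = 0.00564), and the call held with each library left out. ALDH7A1 was at 155, 134 and 152 CPM in KO libraries, against 118, 104 and 101 CPM in WT libraries. All KO libraries were higher (log2 0.45, SE 0.11, adjusted p = 0.0164), though not called without WT 2 (adjusted p = 0.0865) or WT 3 (0.0859). Nor was ALDH7A1 called with only KO and WT fitted (adjusted p = 0.0669) or against all 5 libraries labelled wild type (0.0507). Aldose reductase AKR1B1, which reduces glucose and lipid aldehydes, was at 46.2, 55.3 and 61.4 CPM in KO libraries, against 67.9, 80.8 and 79.1 CPM in WT libraries. The groups did not overlap (log2 -0.48, SE 0.13, adjusted p = 0.0211), and the call was lost without KO 1 (adjusted p = 0.0502), WT 2 (0.104) or WT 3 (0.0818). It was also lost with only KO and WT fitted (adjusted p = 0.0905).

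A few members came close to a call in KO. ALDH3B2, a lipid aldehyde dehydrogenase and close relative of ALDH3B1, was at 2.87, 2.97 and 3.68 CPM in KO libraries, against 1.86, 1.76 and 1.93 CPM in WT libraries (log2 0.78, SE 0.25, adjusted p = 0.0530). AKR1B10, a retinaldehyde reductase, was at 0.574, 0.586 and 0.866 CPM in KO libraries, against 1.77, 1.64 and 1.27 CPM in WT libraries (log2 -1.21, SE 0.38, adjusted p = 0.0526). Both sets of libraries were apart without passing the test, and 14.8% of the 50-base stretches of AKR1B10 occur in other genes, so its reads are less certain. ALDH3B1 was at 91.6 CPM in KO 1 and at 130 and 138 CPM in KO 2 and 3, against 96.9, 92.0 and 94.4 CPM in WT libraries (log2 0.34, adjusted p = 0.130), and without KO 1 it was called higher (log2 0.51, adjusted p = 0.00754). AKR1A1, ALDH1B1 and ALDH9A1, among the most abundant members, differed by 0.14, -0.06 and 0.03 on the log2 scale and were not called.

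To ask how these enzymes differ with added TET1, OE was compared with Lipo. No group was labelled as given an empty plasmid, so TET1 and transfection with a plasmid cannot be told apart here. In this comparison 12 of the 34 tested members were called, 10 lower and 2 higher, a share of 35.3%. Over all genes tested 12.3% were called. Lower calls made up 29.4% of the members and 5.53% of all genes, and higher calls 6.79% of all genes. The family behind most of the lower calls was ALDH, with 7 of 12 lower and none higher, also by DESeq2, and a median log2 change of -0.62 (8 of the 12 had an unadjusted p under 0.05). CYP4B1, FMO5 and SULT2B1 were the other lower members, while CYP2J2 and AKR1D1 were higher. The median over the 34 members was -0.15, and -0.01 over all genes. The libraries of the groups did not overlap for 24 of 34 members, but with 2 libraries a group 65.6% of all genes had that pattern. The 22 members not called ranged between -2.04 and 1.43, with 11 on each side of 0. The lower calls numbered 1 without OE 1, 4 without OE 2, 3 without Lipo 2 and 2 without Lipo 3, where a lone library was assumed to vary like the other groups. The higher calls fell to 1, CYP2J2, without WT 2, WT 3 or any OE or Lipo library. With WT in place of Lipo as control, 6 members were lower and 5 higher, and the share of all genes called in that comparison is not given here. In bulk RNA fewer cells of a kind and less RNA per cell cannot be told apart, and transfection need not reach all cells.

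FMO5 (ENSG00000131781, chromosome 1, 147175351 to 147243050, minus strand), a flavin enzyme that inserts oxygen into ketones, had the largest fall of the called members. It was at 0.789 and 0.874 CPM in OE libraries, against 6.54 and 3.69 CPM in Lipo libraries. The OE libraries were close to each other and far below Lipo, whose libraries differed, and KO (4.99, 4.22 and 4.03 CPM) and WT (3.81, 6.26 and 5.78 CPM) lay in the range of Lipo. The fall rested on 35 reads in OE and 238 in Lipo (log2 -2.61, SE 0.38, adjusted p = 3.73e-04). It lay between -2.98 and -2.15 when each library was left out, and was called each time. Because FMO4, the other FMO kept, was low (1.58 and 1.52 CPM in OE, 1.42 and 1.46 CPM in Lipo), the FMO sum was 2.37 and 2.39 CPM in OE libraries, against 7.95 and 5.15 CPM in Lipo libraries. The FMO5 promoter (chr1:147225290-147225589, minus strand) held 11 CG pairs. It too lies within the annotated gene, whose first start is upstream.

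FMO5: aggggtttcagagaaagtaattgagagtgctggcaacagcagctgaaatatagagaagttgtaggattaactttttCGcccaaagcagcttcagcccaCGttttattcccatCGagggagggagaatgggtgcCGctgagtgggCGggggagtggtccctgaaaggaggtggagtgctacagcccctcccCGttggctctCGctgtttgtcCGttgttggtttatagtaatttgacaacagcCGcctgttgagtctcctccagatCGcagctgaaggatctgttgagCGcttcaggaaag

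CYP4B1 was at 0.493 and 1.06 CPM in OE libraries, against 2.71 and 2.42 CPM in Lipo libraries, from 33 and 118 reads. OE was lower than Lipo, where KO had been higher than WT (log2 -1.71, SE 0.43, adjusted p = 0.0179). The call was lost without OE 1 (log2 -1.27, adjusted p = 0.179), Lipo 2 (adjusted p = 0.0981) or Lipo 3 (0.0695), and without OE 2 the difference was -2.38.

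CYP2J2 (ENSG00000134716, chromosome 1, 59893308 to 59926790, minus strand) rose to 35.3 and 36.0 CPM in OE libraries, against 12.7 and 12.9 CPM in Lipo libraries. Both OE libraries were far above both Lipo libraries, and above all KO and WT libraries as well. The rise was 2.79-fold (log2 1.48, SE 0.24, adjusted p = 7.68e-04), from 1500 reads in OE and 588 in Lipo, and was called with each library left out. Per kb it stood at 11.9 ± 0.156 CPM in OE, against 4.28 ± 0.0684 CPM in Lipo (n = 2 each), the next P450 after CYP1B1 in both groups. The CYP2J2 promoter (chr1:59926724-59927023, minus strand) held 24 CG pairs.

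CYP2J2: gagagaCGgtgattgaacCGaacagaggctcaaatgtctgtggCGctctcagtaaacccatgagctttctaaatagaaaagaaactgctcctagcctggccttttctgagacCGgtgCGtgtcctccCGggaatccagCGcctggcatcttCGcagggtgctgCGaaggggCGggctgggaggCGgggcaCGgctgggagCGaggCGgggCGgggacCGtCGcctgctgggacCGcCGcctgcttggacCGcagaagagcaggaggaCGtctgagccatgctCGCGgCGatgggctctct

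The ALDH genes that fell in OE serve several pathways, and 4 of them break down amino acids or their products in mitochondria. ALDH6A1, of valine and pyrimidine breakdown, was at 11.5 and 12.3 CPM in OE libraries, against 23.0 and 24.9 CPM in Lipo libraries. ALDH4A1, of proline breakdown, was at 12.3 and 10.7 CPM in OE libraries, against 22.6 and 24.0 CPM in Lipo libraries. Both were near 2-fold lower with no overlap, by -1.01 (SE 0.21, adjusted p = 0.00528) and -1.02 (SE 0.27, adjusted p = 0.0228) on the log2 scale. ALDH7A1 was at 79.5 and 84.2 CPM in OE libraries, against 125 and 127 CPM in Lipo libraries (log2 -0.62, SE 0.14, adjusted p = 0.00940). ALDH5A1 was at 39.1 and 43.1 CPM in OE libraries, against 64.9 and 58.8 CPM in Lipo libraries (log2 -0.59, SE 0.16, adjusted p = 0.0271). For both genes the OE libraries were the lowest of all 10.

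The other ALDH genes called in OE were the 3 of the ALDH3 family, which act on fatty and lipid aldehydes. ALDH3B1 was at 50.8 and 55.5 CPM in OE libraries, against 95.8 and 92.1 CPM in Lipo libraries (log2 -0.82, SE 0.17, adjusted p = 0.00657). ALDH3A2 was at 81.2 and 74.2 CPM in OE libraries, against 111 and 128 CPM in Lipo libraries (log2 -0.62, SE 0.14, adjusted p = 0.00993). The OE libraries of both genes were again the lowest of the 10. ALDH3B2 was at 2.51 and 2.58 CPM in OE libraries, against 5.29 and 4.97 CPM in Lipo libraries (log2 -1.01, SE 0.30, adjusted p = 0.0376), but both OE libraries were above all WT libraries (1.76 to 1.93 CPM). With WT as control the difference turned to 0.46 (adjusted p = 0.247). The family as a whole summed to 508 and 512 CPM in OE libraries, against 662 and 678 CPM in Lipo libraries, while KO (619 to 634 CPM) and WT (639 to 663 CPM) were closer to each other.

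Each of these 7 ALDH calls was lost without at least 1 of the OE and Lipo libraries. ALDH4A1, ALDH5A1 and ALDH7A1 were not called when any of OE 1, OE 2, Lipo 2 and Lipo 3 was left out (adjusted p = 0.0686 to 0.228). ALDH3A2 was not called without OE 1, OE 2 or Lipo 3, ALDH3B1 without OE 1 or Lipo 2, ALDH6A1 without OE 1 or Lipo 3, and ALDH3B2 without WT 2, WT 3 or any OE or Lipo library. All kept their direction, and the log2 changes stayed between -0.52 and -1.12. With WT as control the falls of ALDH4A1 (-0.42, adjusted p = 0.236) and ALDH6A1 (-0.51, adjusted p = 0.0649) were not called. Exons of ALDH4A1 overlap those of AL080251.1 on the same strand over 41.1% of their length, those of ALDH6A1 overlap BBOF1 on the other strand over 10%, and those of ALDH5A1 overlap GPLD1 over 4.33%. Mitochondrial genes took a smaller share of reads in OE than in Lipo, as given above, and its part in these results was not tested.

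**Figure D3:**
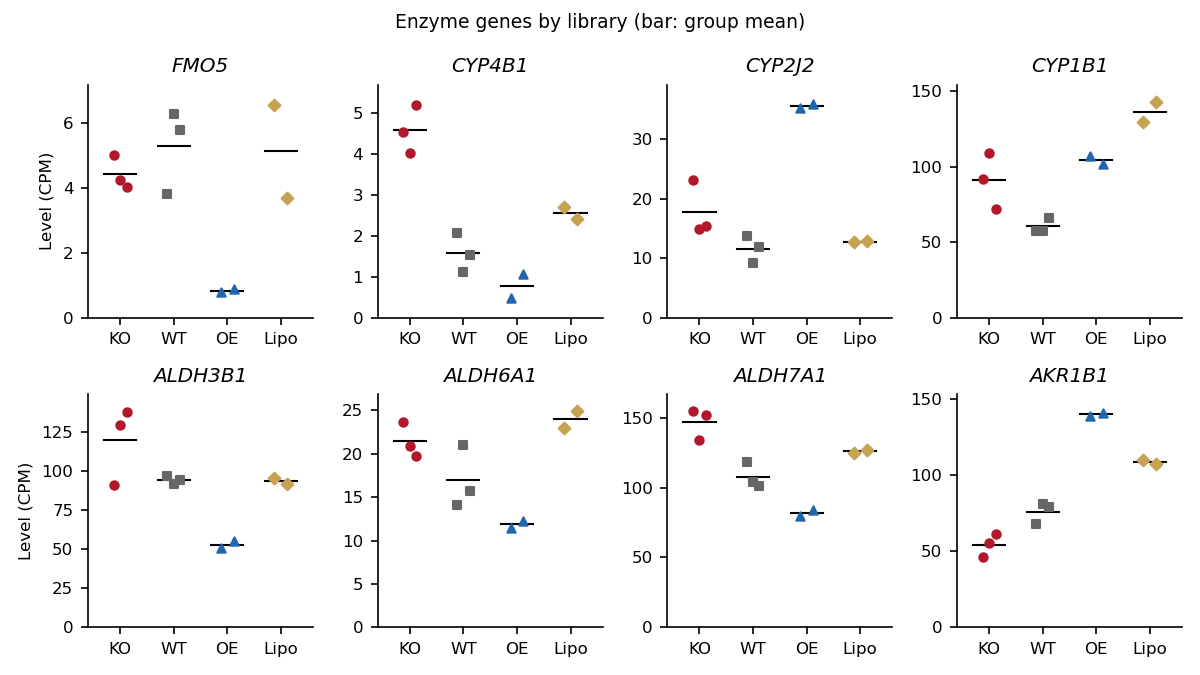
CPM of 8 enzyme genes by library, with a bar at the group mean. FMO5 and the ALDH genes are lowest in OE, CYP2J2 is highest in OE (35.3 and 36.0 CPM), CYP4B1 is highest in KO, and CYP1B1 is higher in Lipo (130 and 143 CPM) than in WT.

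In the conjugating and reducing families, 1 of 4 SULT and 1 of 7 AKR1 members was called in OE, where 12.3% of all genes were. SULT2B1, which sulfates cholesterol, was at 7.44 and 9.38 CPM in OE libraries, against 15.1 and 13.8 CPM in Lipo libraries (log2 -0.78, SE 0.23, adjusted p = 0.0403). With WT as control for OE, SULT2B1 did not pass (log2 -0.35, adjusted p = 0.252). OE was below Lipo but within the range of KO (7.01 to 9.83 CPM), and the call was lost without KO 2, WT 2, WT 3 or any OE or Lipo library (adjusted p = 0.0515 to 0.286). AKR1D1, a steroid reductase of bile acid synthesis, had 15 and 18 reads in OE libraries and 1 read in each Lipo library, an OE to Lipo ratio of 18.0 (exact 95% interval 4.61 to 155, counting error only). It was kept as a member, with 10 or more reads in 2 libraries, through the OE libraries alone, so its call adds no support to the higher count. The call (log2 4.01, SE 1.20, adjusted p = 0.0462) held neither by DESeq2 (adjusted p = 0.0980) nor without WT 2, WT 3 or any OE or Lipo library. AKR1B1 was at 139 and 141 CPM in OE libraries, against 110 and 107 CPM in Lipo libraries, and was not called (log2 0.37, SE 0.15, adjusted p = 0.136). ALDH1B1 was at 117 and 115 CPM in OE libraries, against 89.7 and 93.8 CPM in Lipo libraries (log2 0.33, adjusted p = 0.155). Neither overlapped, and when OE and Lipo alone were fitted AKR1B1 passed (adjusted p = 1.43e-05). In that fit CYP1B1 passed too, as lower (log2 -0.39, adjusted p = 1.31e-05). It held only 2 libraries a group, and the share of all genes it called is not given here, so these small p-values are weak support.

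ALDH1A3, the member that fell most in KO among those called, was at 54.7 and 53.9 CPM in OE libraries, against 58.4 and 55.7 CPM in Lipo libraries (log2 -0.07, SE 0.14, adjusted p = 0.791). With WT as control in place of Lipo, ALDH1A3 was called lower in OE (log2 -0.71, adjusted p = 9.62e-04). RDH10 was at 23.8 and 18.5 CPM in OE libraries, against 27.6 and 26.6 CPM in Lipo libraries (log2 -0.36, adjusted p = 0.265). RARB had 0.874 to 1.08 CPM in OE, against 1.28 to 1.96 CPM in Lipo (log2 -0.72, adjusted p = 0.555). None of these retinoic acid genes passed in OE against Lipo. There PLAAT4 and the transglutaminase TGM2 were the 2 of 12 retinoid genes called, both higher, where 6.79% of all genes were. The list median was 0.02. PLAAT4 was at 10.0 and 10.6 CPM in OE libraries, against 1.75 and 2.19 CPM in Lipo libraries (log2 2.39, SE 0.37, adjusted p = 5.61e-04). TGM2 was at 419 and 426 CPM in OE libraries, against 268 and 270 CPM in Lipo libraries (log2 0.65, SE 0.19, adjusted p = 0.0378). The TGM2 call did not hold when any OE or Lipo library was left out (adjusted p = 0.156 to 0.201). In Lipo against WT no gene of the retinoid list was called by edgeR or DESeq2, with 5 of 12 at unadjusted p under 0.05 and a median of 0.29. CYP26B1 differed there by -0.68 (SE 0.24, adjusted p = 0.141), close to its value in KO.

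The Lipo and WT libraries, both labelled wild type, were compared as a background. Here 3 of 34 members were called (8.82%), 2 higher and 1 lower, where 3.7% of all genes were called, 1.32% higher and 2.38% lower. The median log2 difference was 0.14 over the members and -0.02 over all genes, and the 31 members not called ranged between -2.03 and 1.99, with 18 above 0. CYP1B1 was at 130 and 143 CPM in Lipo libraries, against 57.7, 57.8 and 65.9 CPM in WT libraries. The groups were far apart (log2 1.18, SE 0.16, adjusted p = 0.00121), and the call held with each library left out. ALDH3B2 was at 5.29 and 4.97 CPM in Lipo libraries, against 1.76 to 1.93 CPM in WT libraries (log2 1.47, SE 0.27, adjusted p = 0.00745). ALDH1A3 was at 58.4 and 55.7 CPM in Lipo libraries, against 84.7 to 91.3 CPM in WT libraries (log2 -0.64, SE 0.12, adjusted p = 0.0113). The calls of ALDH3B2 and ALDH1A3 were lost without Lipo 2 (adjusted p = 0.0945 and 0.130) or Lipo 3 (0.105 and 0.224). Just short of the threshold were AKR1B1 (log2 0.51, adjusted p = 0.0597) and ALDH1B1 (0.48, adjusted p = 0.0560), both higher in each Lipo library than in any WT library. The higher calls numbered 1 without either Lipo library and 4 without KO 1 or KO 3, and the lower ones 0 without either Lipo library and 2 without WT 1. The libraries did not overlap for 17 of 34 members, against 43.6% of all genes. This comparison shares the WT libraries with the KO comparison and the Lipo libraries with the OE comparison. Mitochondrial genes took a larger share of reads in Lipo than in WT, and its part in these differences was not tested.

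**Figure D4:**
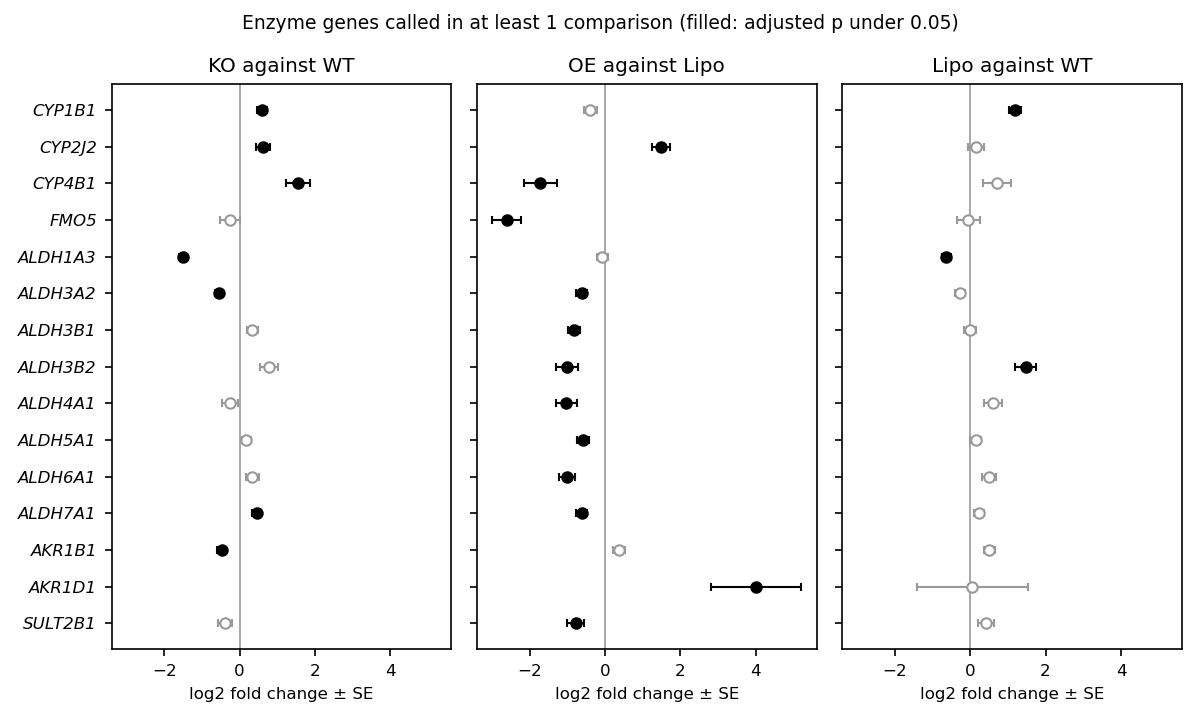
Fitted log2 fold changes with SE of the 15 enzyme genes called in at least 1 comparison, in 3 panels for KO against WT, OE against Lipo and Lipo against WT. Filled points passed the test, AKR1D1 is left out of the KO panel because it had 0 reads in KO and 3 in WT, and the ALDH points lie left of 0 in the OE panel.

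In all, 15 members were called in at least 1 of the 3 comparisons and 19 tested members in none. Over all genes 12.6% were called in KO, 12.3% in OE and 3.7% in Lipo. The share of all genes called in any comparison, or in both KO and OE, is not given here. The members called in both KO and OE, comparisons that share no library, were ALDH3A2, ALDH7A1, CYP2J2 and CYP4B1. ALDH3A2 was lower and CYP2J2 higher in both, while ALDH7A1 and CYP4B1 were higher in KO and lower in OE. When the OE effect was tested against the KO effect, 10 of 34 members differed (29.4%), 8 with a lower and 2 with a higher OE effect, where 16.6% of all genes differed, 7.16% lower and 9.47% higher. CYP4B1 (difference -3.25), ALDH7A1 (-1.07) and ALDH1A3 (1.43) were among the 10.

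The 19 members never called were low in most cases. ALDH9A1, ALDH1B1 and AKR1A1 were the abundant ones, and of these AKR1A1 averaged 76.5 ± 10.9 CPM in KO, 69.4 ± 10.3 CPM in WT, 74.7 ± 0.265 CPM in OE and 81.3 ± 4.22 CPM in Lipo. ALDH9A1 lay between 58.7 and 70.6 CPM over all 10 libraries. The vitamin D hydroxylase CYP2R1 (5.15 to 9.18 CPM), the fatty acid hydroxylase CYP4V2 (5.02 to 8.35 CPM) and the steroid reductase AKR1C3 (4.93 to 7.71 CPM) were intermediate. SULT1A2, a phenol sulfotransferase, was at 2.67 to 7.06 CPM, with its highest value in KO 3, and its paralog SULT1A1 at 0.273 to 2.86 CPM. Of their 50-base stretches 22.0% and 15.0% occur in other genes, so reads may be split between copies. CYP2E1, which oxidises ethanol, was at 1.32, 0.820 and 1.52 CPM in KO libraries, against 0.476, 0.649 and 0.394 CPM in WT libraries (log2 1.25, SE 0.71, adjusted p = 0.286). The groups of CYP2E1 did not overlap, on 86 and 37 reads in all, but it was not called. The fatty acid hydroxylases CYP4F3, CYP4F11 and CYP4F12, the steroid reductases AKR1C1 and AKR1C2, and ALDH1A2 and ALDH1L2 stayed under 0.9 CPM in every library.

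Of the other drug-metabolising enzymes, a list of 54 with 39 tested, 9 were higher and 5 lower in KO, with a median of 0.15. Over all genes tested 5.13% were higher and 7.45% lower. GSTM1, a glutathione transferase with close paralogs, was at 0.706, 0.625 and 1.17 CPM in KO libraries, against 7.01, 8.25 and 6.92 CPM in WT libraries (log2 -3.15, SE 0.27, adjusted p = 2.18e-06). XDH, which oxidises purines, was at 1.28, 2.46 and 2.04 CPM in KO libraries, against 6.19, 8.52 and 8.98 CPM in WT libraries (log2 -2.03, SE 0.24, adjusted p = 5.24e-05). Neither gene overlapped. PAPSS2, which makes the sulfate donor of the SULT enzymes, was at 20.8, 19.6 and 14.5 CPM in KO libraries, against 54.8, 44.5 and 44.3 CPM in WT libraries (log2 -1.39, SE 0.16, adjusted p = 5.17e-05). The glutathione transferase GSTP1 rose to 204, 279 and 368 CPM in KO libraries, against 126, 166 and 176 CPM in WT libraries (log2 0.86, SE 0.18, adjusted p = 0.00525). All 4 genes were apart between the groups, and their calls held with each library left out.

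In OE 9 genes of this list were lower and 1 was higher, where 5.53% of all genes were lower and 6.79% higher. The list median was -0.39, or -0.43 without NNMT, which had 2 reads in OE and 0 in Lipo. The alcohol dehydrogenase ADH1C was at 0.148 and 0.230 CPM in OE libraries, against 2.87 and 3.69 CPM in Lipo libraries (log2 -4.07, SE 0.60, adjusted p = 3.67e-04). GSTA4, which conjugates lipid aldehydes, was at 2.02 and 2.62 CPM in OE libraries, against 7.58 and 7.61 CPM in Lipo libraries (log2 -1.71, SE 0.25, adjusted p = 3.90e-04). OE lay far below Lipo for both, and both calls held with each library left out. PAPSS2 was at 28.2 and 22.8 CPM in OE libraries, against 48.0 and 56.1 CPM in Lipo libraries (log2 -1.03, SE 0.20, adjusted p = 0.00343), and the monoamine oxidase MAOA was lower by -0.80 (adjusted p = 0.00539). PAPSS2 was not called without OE 2 (adjusted p = 0.0717) or Lipo 3 (0.0521), nor MAOA without OE 1 (0.0902) or Lipo 3 (0.0911). In Lipo against WT 2 were higher and none lower, the epoxide hydrolase EPHX1 (log2 0.62, adjusted p = 0.0140) and the acetaldehyde dehydrogenase ALDH2 (0.70, adjusted p = 0.0142), neither called without WT 2, Lipo 2 or Lipo 3. The list median there was 0.12.

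The receptors and other regulators that control these enzymes were a list of 21 with 13 tested. In KO 4 were lower and none higher (median -0.22), RXRA among them, where 7.45% of all genes were lower and 5.13% higher. PPARG, a receptor for fatty acids, was at 42.4, 34.8 and 38.9 CPM in KO libraries, against 63.0, 63.1 and 61.2 CPM in WT libraries (log2 -0.69, SE 0.12, adjusted p = 0.00134). TIPARP, which the aryl hydrocarbon receptor induces and which represses it, was lower by -0.81 (SE 0.15, adjusted p = 0.00281), and the vitamin D receptor VDR by -0.56 (SE 0.12, adjusted p = 0.00529). The calls of PPARG, TIPARP and VDR in KO held with each library left out. In OE, TIPARP (log2 0.63, adjusted p = 0.0382) and VDR (0.52, adjusted p = 0.0283) were higher, where 6.79% of all genes were. PPARA, a receptor for fatty acids, was lower (-0.71, adjusted p = 0.0462), where 5.53% of all genes were, and the median was 0.07. The 3 calls were lost when any OE or Lipo library was left out, TIPARP and PPARA also without WT 2 and PPARA without WT 3 or KO 2. All 3 were lost with WT as control. No gene of this list was called in Lipo by edgeR, where the median was -0.03, 4 of 13 were at unadjusted p under 0.05 and DESeq2 called 1 lower.

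Genes known as targets of NRF2, a transcription factor of the response to oxidants and electrophiles, were a list of 17 with 16 tested. NQO1 also belongs to the list of other enzymes. In KO 2 were higher and 2 lower (median -0.20), where 5.13% of all genes were higher and 7.45% lower. The thioredoxin reductase TXNRD1 was at 1202, 1242 and 919 CPM in KO libraries, against 1701, 1723 and 1589 CPM in WT libraries (log2 -0.58, SE 0.12, adjusted p = 0.00546). The exporter ABCC3 was lower (-0.72, adjusted p = 0.00899, lost without WT 3 at 0.0555). The sugar phosphate enzyme TALDO1 (0.43, adjusted p = 0.0238) and the quinone reductase NQO1 (0.33, adjusted p = 0.0484) were higher. With only KO and WT fitted, the calls of TALDO1 (adjusted p = 0.0854) and NQO1 (0.145) were lost. TALDO1 was not called without WT 2, WT 3, Lipo 2 or Lipo 3, nor NQO1 when any library other than KO 2 and WT 1 was left out. In OE 5 were lower and 2 higher (median -0.28), where 5.53% of all genes were lower and 6.79% higher. NQO1 (-0.46, adjusted p = 0.0267) and ABCC3 (-0.72, adjusted p = 0.0303) were lower, and OSGIN1 (0.91, adjusted p = 0.0339) and HMOX1 (0.77, adjusted p = 0.0152), which breaks down haem, were higher. With WT as control NQO1 differed by -0.06 (adjusted p = 0.725). Each of these 4 calls in OE was lost when any OE or Lipo library was left out (adjusted p = 0.0725 to 0.233), and NQO1 also without WT 2 (0.0501). In Lipo 1 was higher and none lower, HMOX1 (log2 0.82, adjusted p = 0.0156, lost without Lipo 2 or Lipo 3), with a median of 0.38. There 10 of 16 had an unadjusted p under 0.05 and DESeq2 called 6 higher.

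**Figure D5:**
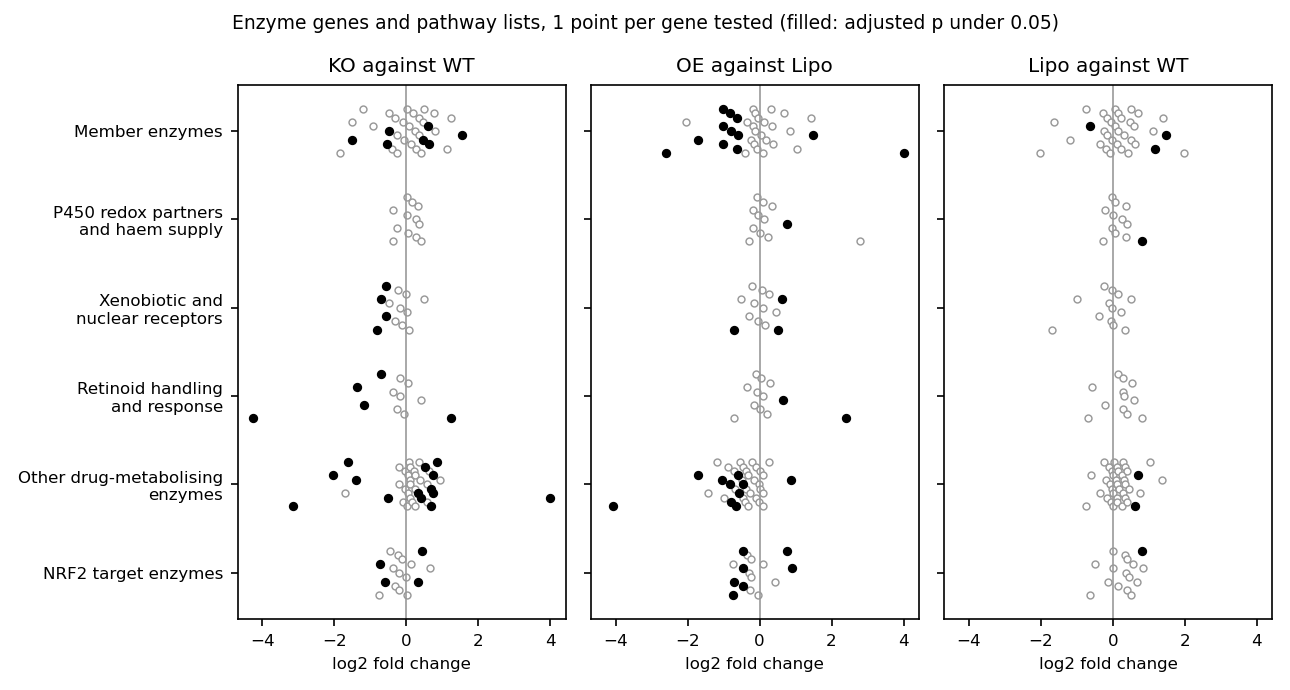
Fitted log2 fold change of each tested gene of the members and of the 5 pathway lists, in 3 panels for KO against WT, OE against Lipo and Lipo against WT, with filled points past the test and vertical position within a row arbitrary. In the OE panel the filled points of the members and of the other drug-metabolising enzymes lie mostly left of 0, and the redox partner row holds 1 filled point in OE and none in KO. Genes with 0 reads in a group, AKR1D1 in KO against WT and NNMT in OE against Lipo and Lipo against WT, are left out.

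The partners that pass electrons to P450s and the enzymes of haem supply, were 12 genes, all tested. No gene was called in KO by edgeR (median 0.11), where 4 of 12 were at unadjusted p under 0.05 and DESeq2 called 1 lower. In OE (median 0.05) and in Lipo (median 0.07) 1 was called, HMOX1, which belongs to this list as well, where 12.3% and 3.7% of all genes were called in OE and in Lipo. HMOX1 was at 79.5 and 73.4 CPM in OE libraries, against 46.1 and 43.6 CPM in Lipo libraries, and at 23.2 to 26.6 CPM in WT libraries. Markers of other cell types moved between the same groups. The 6 fibroblast markers summed to 70.9 to 77.7 CPM in KO libraries, against 177 to 289 CPM in WT libraries, and to 343 to 351 CPM in OE libraries, against 170 to 183 CPM in Lipo libraries, nearly all of it COL1A1 and LUM. The defining markers DCN and PDGFRB were at 0 in all groups. The hepatocyte markers summed to 61.6 to 73.3 CPM in KO libraries, against 37.8 to 62.5 CPM in WT libraries, and to 86.9 to 90.4 CPM in OE libraries, against 34.2 to 40.8 CPM in Lipo libraries, with TTR at 0 throughout and ALB and APOA1 at 0 in OE. The 6 leukocyte markers summed to 0.485 to 1.95 CPM in KO libraries, against 0.996 to 2.14 CPM in WT libraries, and to 3.06 to 4.09 CPM in OE libraries, against 1.69 to 2.33 CPM in Lipo libraries. The part of these markers in the enzyme results was not tested.

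The promoters of the members did not stand apart as a group in CG content. The 28 members with a RefSeq promoter had 0 to 46 CG pairs in 300 bases, with a median of 13.5, against 14 over all promoters. The 9 members lower in OE with a promoter had 2 to 38, with a median of 15. Cores of binding motifs were searched on both strands. The core GCGTG of the aryl hydrocarbon receptor was in 9 of 28 member promoters (32.1%), against 36.5% of all promoters. The antioxidant core TGACNNNGC, bound by NRF2, was in 3 (10.7%), against 13.3%. A match describes the letters and not a bound site.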

How the data were processed

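RNA-seq read counts per gene, as deposited by the authors, were used for 10 libraries (3 KO, 3 WT, 2 OE and 2 Lipo). The submitters' processing notes list FastQC, featureCounts, edgeR, HISAT2 2.1.0 and GRCh38, without roles or settings, and the strand setting and the handling of reads that fit several genes are not given in the sources used here. The table held 62710 rows, 1 of them without values, and 2 of its columns match no sample and were not used. Exon lengths and coordinates came from GENCODE release 29 and promoters from RefSeq (28 of 35 members matched).

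Computed here, in R 4.3.3, was a fit of the deposited counts of all 10 libraries, 1 coefficient per group, with TMM scaling, filterByExpr and edgeR 4.0.16's robust quasi-likelihood F test (two-sided, 6 residual degrees of freedom). P-values were adjusted by Benjamini and Hochberg over 15832 genes and called under 0.05. The procedure was tested on simulated data. At a 1.5-fold change it recovered 31.3% of changed genes in KO against WT, 17.9% in OE against Lipo and 13.4% in Lipo against WT. At 2-fold these were 59.7%, 52.2% and 49.3%. False calls were 2 of 118, 6 of 106 and 4 of 103. A gene not called may therefore still have changed by such amounts. CPM divides counts by the TMM-scaled total of the library, and levels per kb are CPM divided by exon length. A count of 0 allows 3 reads, and intervals are exact at 95%, for counting error only.

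Results were recomputed with RLE scaling, with library size alone, no filter, a stricter filter (1 CPM in 3 libraries and a total of 100), only the groups compared, a replicate block, other controls, DESeq2 1.42.0 and each library left out in turn.

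The rule for naming genes was each member called in a comparison, the 10 members highest per kb in WT, any with 0 reads in a group and 1 CPM or more in another, and up to 4 genes with the smallest p per list and comparison. Other genes named were chosen after their values were seen, and the members and lists with earlier results of these data known.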

Additional observations from a re-analysis of the deposited data

Results flagged for a closer look

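For 10 members the OE effect (OE against Lipo) differed from the KO effect (KO against WT). The difference itself was tested in the fit of all 10 libraries, which is why these members are given here. The comparisons share no library. Values are the log2 change in OE minus the log2 change in KO, with p adjusted over 15832 genes by edgeR's quasi-likelihood test.

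The difference was positive for the retinoic acid-forming ALDH1A3 (1.43, SE 0.18, adjusted p = 5.14e-05), which was lower in KO and not called in OE, and for aldose reductase AKR1B1 (0.86, SE 0.20, adjusted p = 0.00886), likewise lower in KO. The AKR1B1 difference was not called without Lipo 3 (adjusted p = 0.0607). It was negative for CYP4B1 (-3.25, SE 0.54, adjusted p = 0.000759) and ALDH7A1 (-1.07, SE 0.18, adjusted p = 0.000851), both called higher in KO and lower in OE. It was also negative for ALDH3B1 (-1.17, adjusted p = 0.00234), ALDH6A1 (-1.35, adjusted p = 0.00285), FMO5 (-2.35, adjusted p = 0.00299), ALDH3B2 (-1.79, adjusted p = 0.00539) and ALDH5A1 (-0.77, adjusted p = 0.0205), which were called in OE and not in KO. The ALDH5A1 difference was not called when WT 2 or any OE or Lipo library was left out (adjusted p = 0.0547 to 0.124). CYP1B1 differed by -0.98 (adjusted p = 0.00769), as a call in KO and none in OE, and not without Lipo 3 (adjusted p = 0.0505). In OE against Lipo CYP1B1 did pass with these groups alone fitted (only 2 libraries each, adjusted p = 1.31e-05) or without KO 3 (0.0499). Its level in Lipo (130 and 143 CPM) was above that in WT (57.7 to 65.9 CPM), so this value depends on which control goes with OE. The differences of ALDH3B2 and ALDH1A3 touch the same contrast of controls, in which both were called. With WT as control for OE, ALDH1A3 was called lower in OE too (log2 -0.71, adjusted p = 9.62e-04).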

How the results depend on the processing

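The counts of members lower in KO (3) and of members with a lower OE effect than KO effect (8) stayed within 1.5 times in every alternative run, and ranged over 2 to 4 and 6 to 8 with each library left out. The count higher in KO (4) was 2 with only the groups compared and 2 with the 5 WT and Lipo libraries as joint control, and 1 to 4 with each library left out. The count higher in OE (2) was 1 with no filter, 1 with the stricter filter, 1 by DESeq2, 4 with only the groups compared, 4 with the joint control and 5 with WT as control, and 1 to 2 with each library left out. The count lower in OE (10) was 6 with WT as control and 1 to 11 with each library left out. In Lipo against WT the count higher (2) was 4 with only the groups compared, 4 by DESeq2 and 4 with the replicate block, and 1 to 4 with each library left out. The count lower (1) was 2 with no filter and 2 with the block, and 0 to 2 with each library left out. The count with a higher OE effect (2) was 1 to 3 with each library left out.

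With WT as control for OE, ALDH3B2 turned to 0.46 (adjusted p = 0.247) and CYP1B1 to 0.78 (adjusted p = 0.00228). Both were higher in Lipo than in WT. RLE scaling ended no call of a named gene. Shares of all genes called in the alternative runs are not given here.

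Deviations of KO and WT libraries with the same number correlated at 0.456, 0.099 and 0.284 over 15832 genes, and WT 2 correlated best with KO 3 (0.155), so the numbers were not taken to pair the libraries. With the replicate block the KO counts were 4 higher and 3 lower, and 8 were lower in OE. OE and Lipo share only the number 2. Depth is thin for the 10 members under 0.1 CPM per kb in WT, which had at most 37 WT reads each.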
